A study of Mus musculus with 2 samples.

Results

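Batf, Batf3, Irf4, Maf, Prdm1 and Il21 are 6 of the 20794 genes in a single-cell RNA matrix of GD2TIF cells. The members are 5 transcription factor genes and 1 cytokine gene, and they were chosen from their measured values in these cells, so their levels and folds below describe the choice and support nothing further. GD2TIF cells are T cells from Cas9 transgenic mice that were activated and given a retrovirus directed against Bcor and Zc3h12a, which also delivers a chimeric antigen receptor (14g2a) that recognises the ganglioside GD2. They were transferred into immunocompetent C57BL/6 mice and their CD8+Thy1.1+ fraction was sorted from the spleen 2 months later. The sort gave 1 library of single-cell RNA and 1 of T cell receptors (TCR), and all cells carry the same treatment. The sources used here do not give the number of mice behind the sort, the design has no control group, and families of related cells cannot be told apart from the mice they came from.

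BATF and BATF3 are small leucine zipper proteins that pair with JUN proteins and bind composite DNA elements together with IRF4, a factor whose amount follows the strength of TCR signalling. MAF is a larger leucine zipper factor known for driving interleukin 10 and interleukin 21 in T cells, and PRDM1 (Blimp-1) is a repressor that promotes effector differentiation and restrains genes of memory cells. Interleukin 21, encoded by Il21, is a cytokine made mainly by helper T cells, and it signals through a receptor that shares the common gamma chain and acts through STAT3.

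After filtering, 10338 cells were left in the RNA library, at a median of 1922 unique molecular identifiers (UMIs, counted transcripts) and a 5th to 95th percentile range of 815 to 4244. Of 5479 barcodes in the TCR library, 4586 were among these cells. Exactly 1 productive TRB chain was found in 3879 cells, 2 in 247 and none in 6212. Cells with the same single TRB, by its CDR3 nucleotides, form a TRB family, and 12 families had 50 or more cells, 2614 cells in all. At least 2 of 12 T cell markers were found in 99.7% of cells. Most of these markers, such as Cd3e and Trac, are found in CD4 T cells as well, so this share does not show CD8 identity. Over all cells Cd8a stood at 208 and Cd8b1 at 407 UMIs per 1000000 UMIs (CPM), with Cd4 at 0.628 and Foxp3 at 0.180. Every interval below is at 95% and covers counting error only, since there is 1 library. UMI counts were not scaled for transcript length, so levels are compared between cells and not between genes.

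The largest family, TRBV15/TRBJ1-1, held 882 cells, and the other 2997 single-TRB cells are the reference for it. Its median depth was 2060 UMIs per cell against 2072 in the reference. The receptor genes in the RNA library followed the TRB calls: Trbc1, the constant segment used with TRBJ1 joins, stood at 8083 CPM in that family and 2056 CPM in the reference, and Trbc2 at 1253 and 4349 CPM. The CDR3 nucleotides of the 4 families that the results turn on are shown because they define which cells were summed. Capitals mark the bases between the longest start and the longest end that a sequence shares with any of the other 11 families.
TRBV15/TRBJ1-1: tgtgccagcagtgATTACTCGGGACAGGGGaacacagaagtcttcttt
TRBV12-2+TRBV13-2/TRBJ2-5: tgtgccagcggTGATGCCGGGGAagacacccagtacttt
TRBV29/TRBJ1-1: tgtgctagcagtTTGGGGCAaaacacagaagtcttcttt
TRBV12-1/TRBJ2-4: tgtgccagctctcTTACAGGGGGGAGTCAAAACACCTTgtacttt
The V name of the second family is given as the contig table writes it. The TRBV15/TRBJ1-1 and TRBV29/TRBJ1-1 sequences end in the same stretch of the shared joining segment and differ in their middle.

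Batf was found in every family, at levels that differed between families. Over all cells it stood at 588 CPM (578 to 598), with at least 1 UMI in 56.9% of cells and in 39.1% after every cell was thinned to 1000 UMIs. Cells with a Batf UMI were deeper than cells without one, at a median of 2154 against 1666 UMIs. Over the 12 families the level ran from 457 CPM (399 to 520) in TRBV17/TRBJ1-1 to 814 CPM (700 to 941) in TRBV14/TRBJ1-4, so the highest and the lowest family did not overlap. Against all other single-TRB cells, TRBV14/TRBJ1-4 was at 1.40-fold (1.20 to 1.63), TRBV17/TRBJ1-1 at 0.769-fold (0.670 to 0.878) and the second largest family, TRBV12-2+TRBV13-2/TRBJ2-3, at 0.764-fold (0.707 to 0.826). Each family's interval overlapped that of its neighbour in the order. TRBV15/TRBJ1-1 was the 6th at 624 CPM (589 to 660), beside TRBV12-2/TRBJ1-1 at 632 and TRBV17/TRBJ2-7 at 616. Cells with 3 or more B cell markers had Batf at 143 CPM (61.9 to 282) and in 2 of 22 thinned cells, but only 24 such cells were present, at a median of 2118 UMIs.

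Batf3 was rare except in 1 small family. The whole library held 110 Batf3 UMIs in 76 cells, 4.94 CPM (4.06 to 5.95). The TRBV12-1/TRBJ2-4 family had 23 of them in 15 of its 77 cells, 103 CPM (65.3 to 155), and 9 of these cells had 1 UMI, 4 had 2 and 2 had 3. All other single-TRB cells together held 12 UMIs, and the next family, TRBV29/TRBJ1-1, stood at 2.19 CPM with 1 UMI. The ratio of this family to all other single-TRB cells was 73.6 (35.2 to 162). Thinning to 1000 UMIs left Batf3 in 5 of the 77 cells, 6.49% (2.14 to 14.5), against 1 of 856 in TRBV15/TRBJ1-1.

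The TRA chain, the partner of TRB in the receptor, gave a further look at Batf3. Cells of the TRBV12-1/TRBJ2-4 family that carried the family's main TRA had 21 Batf3 UMIs in 69 cells, 106 CPM (65.6 to 162), and the 8 cells without it had 2 UMIs. Among cells with no TRB but that TRA, 1 of 17 held Batf3, with 4 UMIs. No Batf3 UMI was found in 443 cells with no TRB and another TRA only, which allows up to 4.66 CPM, while 5752 cells with neither chain held 70 UMIs in 47 cells, 5.82 CPM. Batf3 is also a defining factor of cDC1 dendritic cells. Of the 5 cDC1 markers in the matrix, Xcr1 had the most UMIs, 398 in all cells, and Cadm1 and Zbtb46 had 4 and 5.

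Irf4 was sparse, with 188 UMIs in 154 cells, 8.44 CPM (7.27 to 9.73). It stood at 21.7 CPM (15.6 to 29.3) in TRBV15/TRBJ1-1, from 42 UMIs in 34 cells, and at 22.0 CPM (6.00 to 56.3) in TRBV12-2+TRBV13-2/TRBJ2-5, from only 4 UMIs. TRBV29/TRBJ1-1 followed at 13.1 CPM with 6 UMIs, 5 families lay between 4.29 and 8.96 CPM, and 4 families held no Irf4 UMI. Neighbours in this order overlapped throughout, and the families at 0 allow up to 7.39 to 40.2 CPM. Most cells with Irf4 in the largest family had 1 UMI, 27 of 34. Irf4 was found in 3.85% of family cells and 1.07% of the reference, and after thinning in 2.10% (1.25 to 3.30) and 0.416% (0.215 to 0.726). Cells with 3 or more B cell markers held 1 Irf4 UMI, 17.9 CPM (0.453 to 99.8).

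Maf differed widely between families. Over all cells it stood at 53.5 CPM (50.5 to 56.6), with a UMI in 6.93% of cells and in 4.08% after thinning. In TRBV15/TRBJ1-1 it reached 183 CPM (164 to 203), with a UMI in 178 of 882 cells, 43 of which had 3 or more. That is 20.2% of its cells against 4.80% of the reference, and 11.8% (9.71 to 14.2) against 2.81% (2.24 to 3.48) after thinning. TRBV12-2+TRBV13-2/TRBJ2-5 was next at 110 CPM (67.2 to 170), an interval that still touches the first. TRBV17/TRBJ2-7, TRBV17/TRBJ1-1, TRBV29/TRBJ1-1 and TRBV13-3/TRBJ2-7 lay between 43.6 and 57.7 CPM, and the other 6 families between 0 and 19.0 CPM. The second largest family, TRBV12-2+TRBV13-2/TRBJ2-3, belonged to that low set at 14.1 CPM (8.93 to 21.1) with 600 cells. Cells with 3 or more B cell markers held 1 Maf UMI, and none of the 22 thinned ones had it.

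Prdm1 was not highest in the largest family. It stood at 19.3 CPM (17.6 to 21.3) over all cells, in 354 cells. TRBV29/TRBJ1-1 had 48.2 CPM (30.2 to 72.9), TRBV15/TRBJ1-1 38.2 CPM (30.0 to 47.9), TRBV17/TRBJ1-1 36.1 CPM (21.4 to 57.0), TRBV12-2+TRBV13-2/TRBJ2-5 33.0 CPM and TRBV17/TRBJ2-7 28.9 CPM. These 5 families overlapped. TRBV12-2+TRBV13-2/TRBJ2-3 lay apart from the 3 highest at 8.58 CPM (4.69 to 14.4), and 4 families held no Prdm1 UMI. Thinned shares kept TRBV29/TRBJ1-1 first, at 6.95% (3.75 to 11.6) of cells against 3.39% (2.28 to 4.83) in TRBV15/TRBJ1-1, again overlapping.

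Il21, the cytokine gene, was highest in the largest family. The library held 132 Il21 UMIs in 107 cells, 5.92 CPM (4.96 to 7.03). TRBV15/TRBJ1-1 had 50 UMIs in 39 cells, 25.8 CPM (19.1 to 34.0), and the reference cells had 15 UMIs in 13 cells, 2.19 CPM (1.22 to 3.61). The 6212 cells with no TRB held 64, 4.98 CPM (3.84 to 6.36). No other family had more than 3 UMIs: TRBV12-2+TRBV13-2/TRBJ2-5 stood at 11.0 CPM (1.33 to 39.8) from 2, and 6 families at 0. Cd4, the marker of helper T cells, had 0 UMIs in the largest family and 6 in the reference. Both CD8 genes were lower in the largest family than in the reference. Cd8a was at 147 against 237 CPM, 0.620-fold (0.545 to 0.704). Cd8b1 was at 278 against 443 CPM, 0.627-fold (0.571 to 0.688). A UMI of Il21 was found in 4.42% of cells of the largest family and 0.434% of the reference. After thinning, 2.34% (1.43 to 3.59) of cells in the largest family and 0.104% (0.0215 to 0.304) of the reference cells had Il21. Cells with 3 or more B cell markers had none, which in 24 cells allows up to 66.1 CPM.

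**Figure D1:**
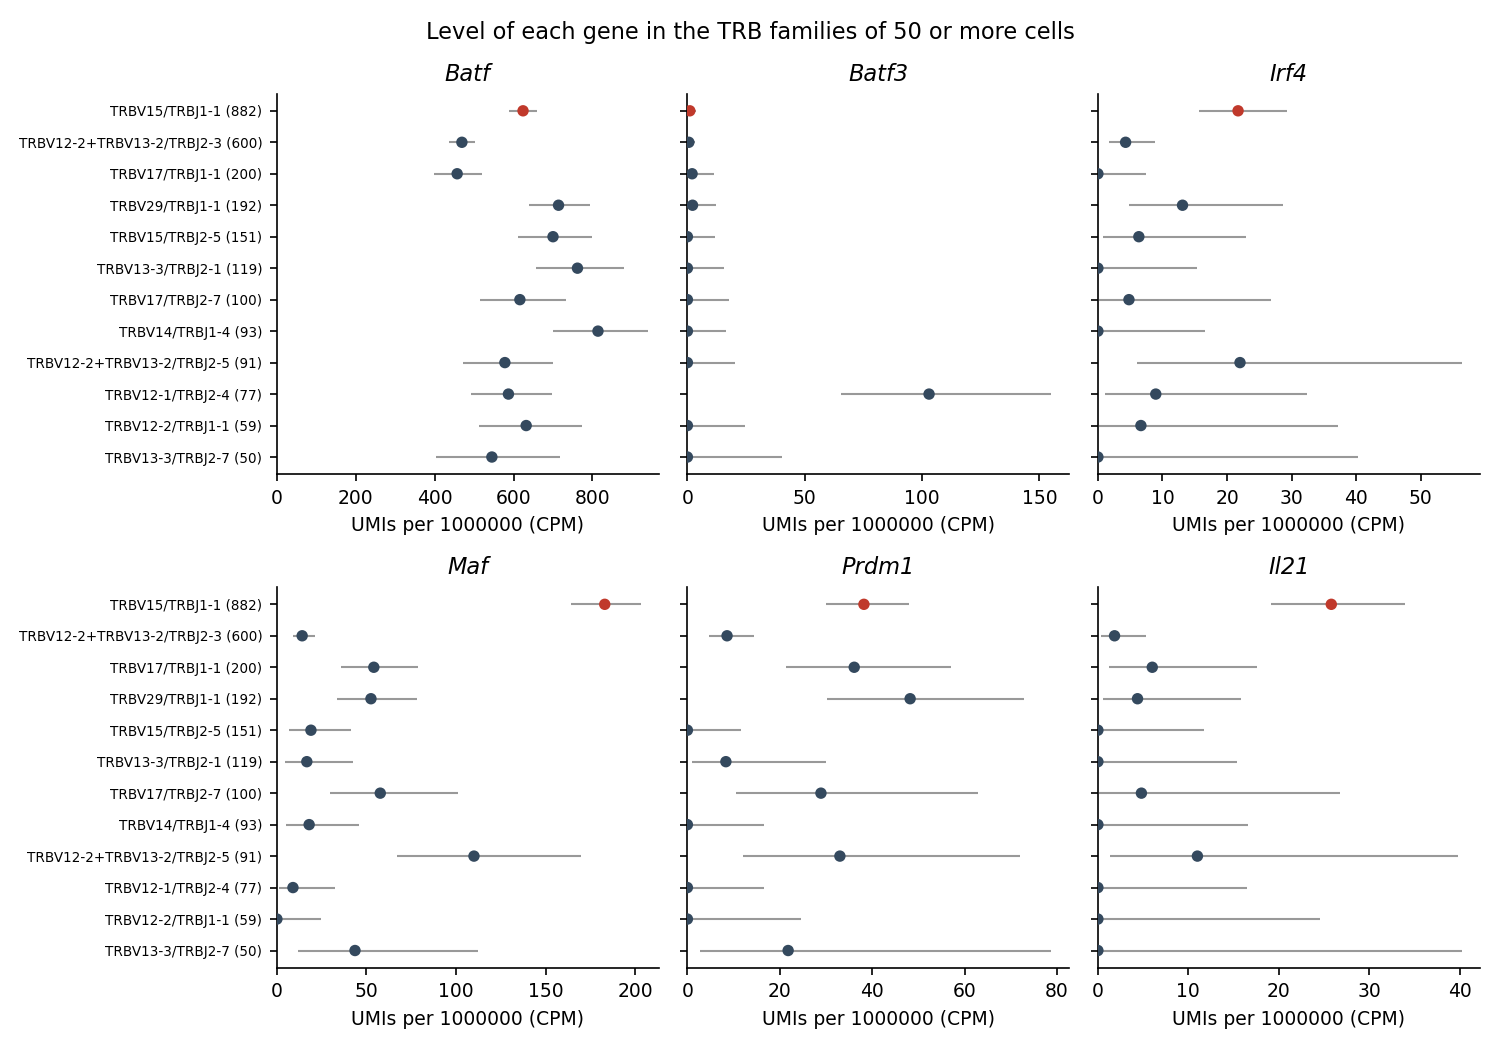
Level of the 6 genes in each TRB family of 50 or more cells, in CPM with exact 95% Poisson intervals (counting error only), families named by their V and J genes with the number of cells in brackets and TRBV15/TRBJ1-1 in red. Batf lies between 457 and 814 CPM in every family, Batf3 stands out in TRBV12-1/TRBJ2-4 at 103 CPM, and Maf at 183 CPM and Il21 at 25.8 CPM are highest in TRBV15/TRBJ1-1.

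Set against the other single-TRB cells, the largest family was higher for 4 of the 6 genes by 2-fold or more. Il21 was 11.8-fold higher (6.51 to 22.6), Maf 5.87-fold (4.94 to 6.98) at 183 against 31.2 CPM, Irf4 4.24-fold (2.64 to 6.84) at 21.7 against 5.10 CPM, and Prdm1 2.54-fold (1.86 to 3.46) at 38.2 against 15.0 CPM. Of 9211 genes with 50 or more UMIs over both sides, 2.28% were at least 2-fold higher in the family, and since the members were chosen from this contrast nothing is read from the comparison of these shares. Il21 and Irf4 passed this UMI minimum only through the family itself. Of genes with 200 or more UMIs over the families, 4.03% had their highest family in TRBV15/TRBJ1-1; Maf passed this minimum only through that family, so nothing is read from its place there.

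Batf and Batf3 were not 2-fold higher. Batf was at 624 against 576 CPM, 1.08-fold (1.02 to 1.16), and at 0.999-fold with the other families weighted equally, so its direction depends on the reference. Batf3 was at 1.03 against 4.81 CPM, from 2 and 33 UMIs, a ratio of 0.214 (0.0249 to 0.838), and its 35 UMIs put it under the minimum for the tested genes. Without the TRBV12-1/TRBJ2-4 family in the reference this ratio was 0.684.

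**Figure D2:**
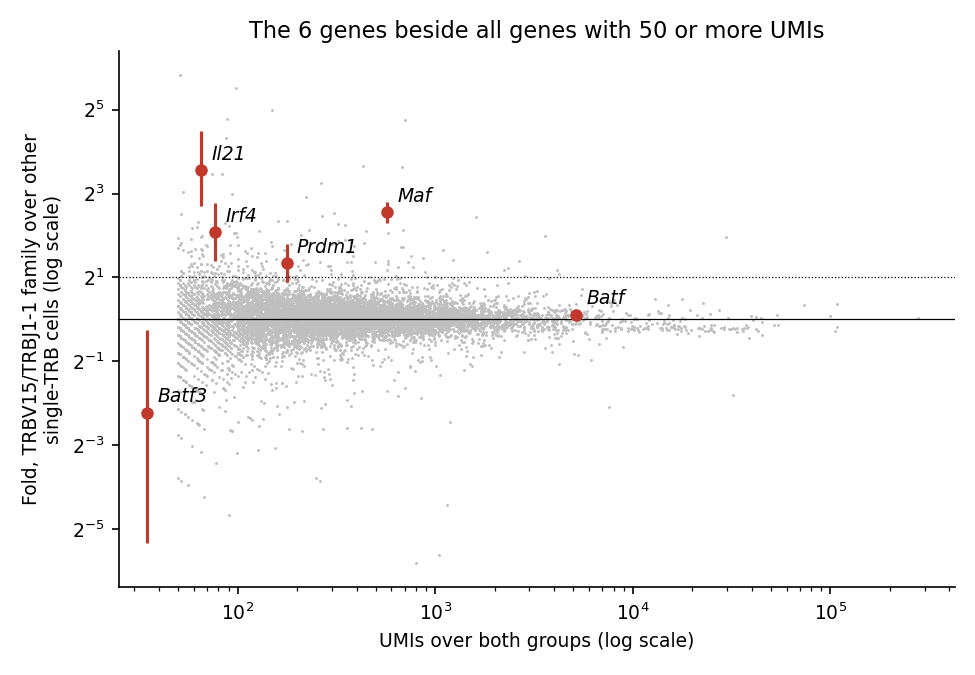
Fold of each gene in the TRBV15/TRBJ1-1 family over other single-TRB cells (log scale) against its UMIs in both groups (log scale): grey points are the 9211 genes with 50 or more UMIs, leaving out those with 0 in the family, and red points are the 6 genes with exact 95% intervals for counting error. Il21 at 11.8, Maf at 5.87, Irf4 at 4.24 and Prdm1 at 2.54 lie above the dotted line at 2-fold, Batf at 1.08 lies near 1 and Batf3 at 0.214 has a wide interval.

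The levels of Irf4, Maf, Prdm1 and Il21 within the family varied with the TRA chain found beside its TRB. The 517 cells with the family's main TRA alone had Maf at 203 CPM (177 to 231), Irf4 at 29.9 CPM (20.7 to 41.8), Prdm1 at 46.7 CPM (35.0 to 61.1) and Il21 at 32.6 CPM (22.9 to 44.9). The 205 cells with another TRA only had Maf at 102 CPM (74.5 to 137), Irf4 at 4.54 CPM (0.550 to 16.4), Prdm1 at 20.4 CPM (9.34 to 38.8) and Il21 at 9.08 CPM (2.47 to 23.2). The intervals of Maf and Irf4 did not overlap between these groups, while those of Prdm1 and Il21 did. Of these 205 cells, 137 carried the main TRA of another family of 50 or more cells, and the part of doublets in this was not tested. The 116 cells with both the family TRA and another had Maf at 267 CPM (211 to 333). Batf differed less, at 639 CPM (594 to 688) and 595 CPM (525 to 671).

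Maf was lower where either chain of the family was found with another TRB. The 49 cells with the family TRB beside another TRB had Maf at 26.9 CPM (7.33 to 68.9) and no Il21 UMI, and 162 cells with another single TRB and the family TRA had Maf at 46.4 CPM (28.4 to 71.7) and Il21 at 2.32 CPM from 1 UMI. Cells with no TRB and the family TRA numbered 30, and they held 3 Il21 UMIs, 57.1 CPM (11.8 to 167), and 2 Maf UMIs.

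**Figure D3:**
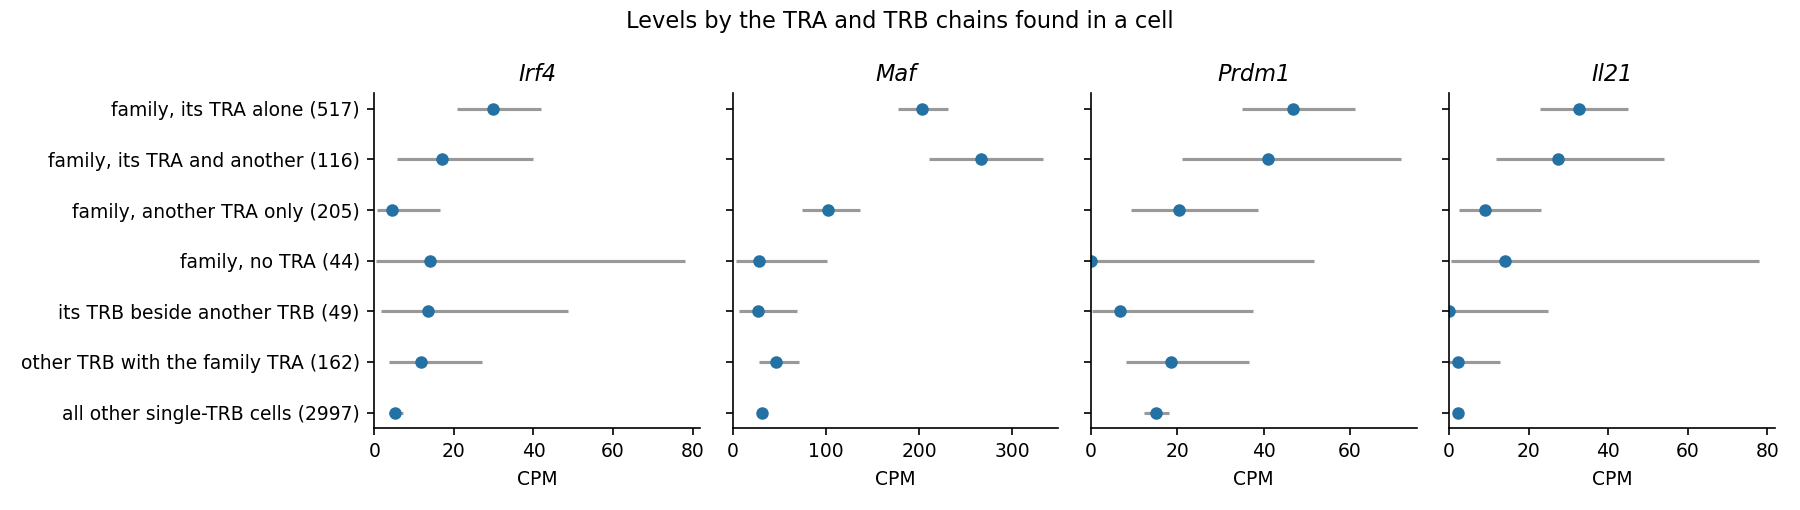
Levels of 4 genes, in UMIs per 1000000 UMIs (CPM) with exact 95% intervals for counting error, by the TRA and TRB chains found in a cell, with the number of cells in brackets. Maf is at 203 and 267 CPM in family cells with the family TRA, 102 CPM in those with another TRA only and 31.2 CPM in all other single-TRB cells.

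Maf was found in the same cells as Prdm1, Il21 and Irf4 more often than the product of their shares gives, inside the TRBV15/TRBJ1-1 family. This product is the number of cells that would hold both genes if each were spread evenly over the cells. The intervals of the pair ratios cover counting error in the cells with both genes and take the product as fixed. Without thinning, 29 cells had Maf and Prdm1, 2.36 times the product (1.58 to 3.38), 18 had Maf and Il21, 2.29 times (1.36 to 3.61), and 17 had Maf and Irf4, 2.48 times (1.44 to 3.97). Cells with these genes were deeper: the median was 2425 UMIs in cells with Prdm1 and 2045 in cells without it. Thinned to 1000 UMIs, the ratios were 2.34 (1.01 to 4.61) from 8 cells, 2.97 (1.19 to 6.11) from 7 and 2.35 (0.764 to 5.49) from 5, so the last interval includes 1.

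The same pairs read from the Maf side gave shares of cells. Among thinned family cells with a Maf UMI, Il21 was found in 7 of 101 (6.93%) against 13 of 755 (1.72%) without Maf, Prdm1 in 8 (7.92%) against 21 (2.78%), and Irf4 in 5 (4.95%) against 13 (1.72%). Of 5983 genes found in at least 2% of these cells, 13.4% had a share at least 1.5 times as high in cells with Maf, with a median ratio of 0.978 and a 5th to 95th percentile range of 0.306 to 1.97. Nothing is read from this share, since the genes were listed with their co-detection already known, and Il21 and Irf4 passed the 2% limit only through cells with Maf. Batf was found in 41.6% of cells with Maf and 42.4% of cells without it.

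Pairs without Maf rested on very few cells inside the family. Irf4 and Prdm1 were found together in 2 cells (ratio 0.851, 0.103 to 3.07), Irf4 and Il21 in 1 (0.665, 0.0168 to 3.71) and Prdm1 and Il21 in 5 (1.85, 0.602 to 4.33). These intervals hold both 1 and the ratios of the Maf pairs, so a difference from the Maf pairs was not detectable at this depth. Counting Irf4, Maf, Prdm1 and Il21 per cell, 63 of 882 family cells (7.14%) had at least 2 of the 4, where the product of shares gives 30.8 cells. All 4 were found in 1 cell.

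Batf was found in 552 of 882 cells of the family without thinning, so the ratio of a pair with Batf cannot exceed 1.60, while that of a pair with Maf, found in 178, can reach 4.96. The ratios of Batf are therefore not set against those of Maf. Inside the family, 118 cells held Batf and Maf, 1.06 times the product (0.877 to 1.27), and with Irf4, Prdm1 and Il21 the ratios were 0.987, 1.13 and 1.19, all with intervals that include 1. After thinning, Irf4 was found in 5 of 362 cells with Batf (1.38%) and 13 of 494 without it (2.63%), and Prdm1 in 17 (4.70%) and 12 (2.43%). Of 5983 genes, 9.08% had a share at least 1.5 times as high in cells with Batf, and Prdm1 was the 1 gene of the 4 among them. Prdm1 passed the 2% limit, which is set over all 856 thinned family cells, only through cells with Batf, so nothing is read from its place there.

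Outside the family the same genes met in fewer cells. Maf and Prdm1 were found together in 13 of 2997 cells, 3.07 times the product (1.64 to 5.26), Maf and Il21 in 5, 8.0 times (2.6 to 18.7), and Irf4 and Prdm1 in 5, 5.32 times (1.73 to 12.4). Taken within families of 50 or more cells, so that differences between these families do not enter, the ratios were 1.95 (0.892 to 3.70), 5.43 (1.48 to 13.9) and 4.42 (1.20 to 11.3). Maf and Irf4 met in 2 cells, 1.30 times the product (0.158 to 4.70). Thinned values for the 6 pairs of these 4 genes outside the family came from 0 to 4 cells a pair, and all their intervals include 1. At least 2 of the 4 genes were found in 23 of 2997 cells (0.767%), against 7.70 cells by the product of shares, and these cells were deeper, at a median of 2758 UMIs against 2041 in cells with none. Batf met Maf in 93 of these cells, 1.10 times the product (0.885 to 1.34), and of 5920 genes 1.76% had a share at least 1.5 times as high in cells with Batf; Maf, at 3.03% against 2.67%, was not among them.

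**Figure D4:**
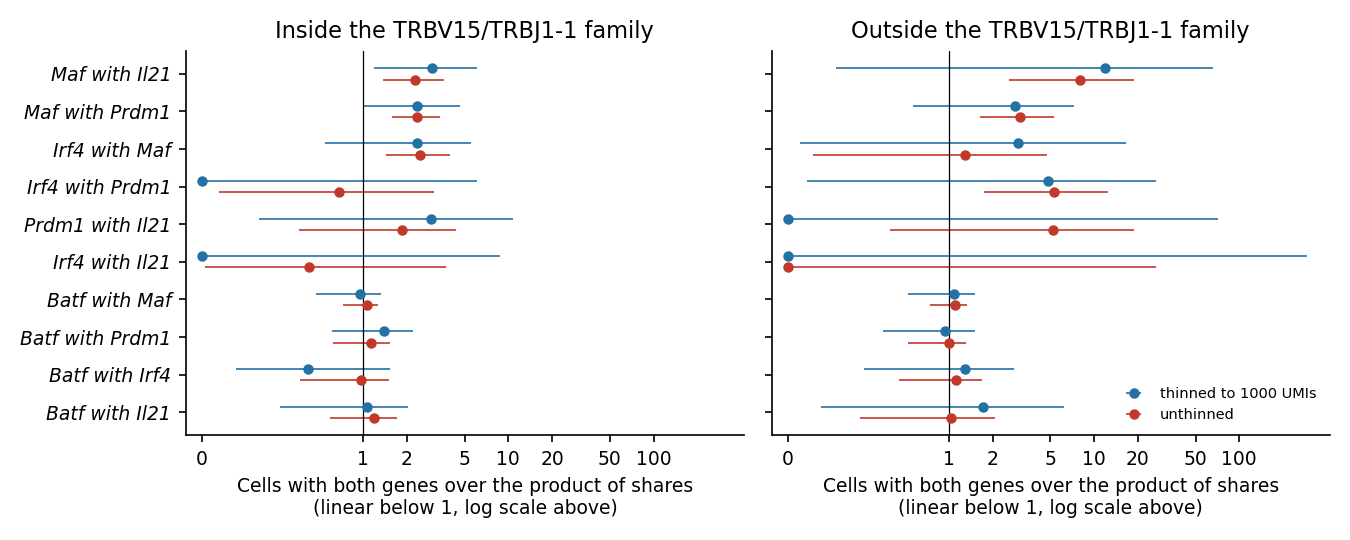
Number of cells with both genes of a pair divided by the product of their shares, inside (left) and outside (right) the TRBV15/TRBJ1-1 family, thinned to 1000 UMIs in blue and unthinned in red. Bars are 95% Poisson intervals of the cells with both genes, with the product taken as fixed. The axis is linear below 1 and on a log scale above. Inside the family the 3 unthinned Maf pairs lie between 2.29 and 2.48, and the 4 Batf pairs between 0.987 and 1.19, where the ratio cannot exceed 4.96 with Maf and 1.60 with Batf.

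Levels of the 6 genes were also compared in pairs over the 12 families. As a description over families, which share 1 library and differ in size, Pearson's r of log2(CPM + 10) was 0.85 for Maf and Prdm1 and 0.86 without TRBV15/TRBJ1-1, and 0.86 for Maf and Il21 and 0.81 without it. Prdm1 and Il21 gave 0.72 and 0.78, and Irf4 and Il21 0.68 and 0.53. Il21 had at most 3 UMIs in any family but the largest and 0 in 6 of them, so its values rest on few counts. Irf4 and Maf gave 0.47 and 0.25. Batf gave values from -0.33 to 0.01 with the other 5 genes. Among 1976 genes with 500 or more UMIs over the families, those most like Prdm1 were Nkg7 (0.96), a cytotoxic granule gene, S100a11 and the perforin gene Prf1 (both 0.89), Tmem50a and Lsp1. Those most like Maf were S100a11 (0.88), Vps37b, the orphan receptor gene Nr4a2, Prf1 and the inhibitory receptor gene Ctla4 (0.86 each for the last 3). Mvd, an enzyme gene of the mevalonate pathway, led for Il21 at 0.88, and at 0.66 without TRBV15/TRBJ1-1. Tpr led for Batf (0.83), Arpc5 for Batf3 (0.84) and Top2b for Irf4 (0.87), and the low UMI counts of Irf4, Il21 and Batf3 limit these orders. The genes named are the highest of 1976 over only 12 families, and Batf3 stood out in 1 family. Nothing is therefore read from the height of their r.

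Genes known to act with the 6 were measured in lists chosen with earlier results of these data known. In the contrast of the family with the other single-TRB cells, 7.47% of the 9211 genes were at least 1.5-fold higher and 6.59% at least 1.5-fold lower, with a median fold of 1.02. Among 8 measured partners of BATF in the AP-1 group, 1 was higher, Fosl2 at 2.04-fold (29.4 against 14.4 CPM), and 2 were lower, Jun at 0.566 and Fos at 0.659, with a list median of 0.855. Jun and Fos also respond to cell handling, and of 8 handling stress genes 3 were lower, Jun and Fos themselves and Hspa1a at 0.633, with a median of 0.808; the part of handling was not tested. None of 7 other IRF genes was higher, 1 was lower, Irf8 at 0.626, and their median was 0.829. None of 4 other Maf family genes passed either limit, with a median of 1.31 and Mafg highest at 1.47 (0.941 to 2.25).

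Genes around interleukin 21 and TCR signalling were mixed. Of 14 genes of interleukin 21 and interleukin 2 family signalling, 1 was higher, Il10, which MAF is known to drive, at 26.8 against 6.85 CPM, 3.91-fold (2.59 to 5.93). Il10 passed the UMI minimum only through the family, with 52 UMIs there and 47 in the reference, so nothing is read from its place in the count. Lower were Il6ra at 0.347 and the interleukin 21 receptor gene Il21r at 0.656, while Stat3 was at 1.10 and Il2rg at 1.16, and the list median was 1.04. Of 13 genes of TCR signalling upstream of Irf4 and Batf, 2 were higher, Nr4a3 at 3.35-fold (2.40 to 4.68) and Nr4a2 at 1.85-fold (1.66 to 2.06), none was lower, and the median was 1.12. Nr4a1 was at 1.26 and Egr2 at 1.16.

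Genes that Blimp-1 is known to repress were lower in 2 of 6 cases and higher in none, with a median of 0.802. Tcf7, a factor of stem-like T cells, was at 373 against 667 CPM, 0.559-fold (0.516 to 0.604), and Id3 at 158 against 271 CPM, 0.584-fold (0.516 to 0.660), while Bcl6 was at 0.905 and Il2 at 0.941. Of 10 follicular helper genes, 4 were higher, Tox2 at 2.6, Icos at 2.25, Sh2d1a at 2.12 and Pdcd1 at 1.58, and 2 were lower, Il6ra and Cd40lg (0.612, 0.265 to 1.25), with a median of 1.18. Cxcr5, the homing receptor of follicular cells, was at 126 against 123 CPM. Of 10 receptor and effector genes of chronic stimulation, 7 were higher, led by Gzmk at 3.95 and Ctla4 at 3.12, and none was lower, with a median of 1.64. Among the 7, Pdcd1 is counted in the follicular helper list as well. Havcr2, at 1.57 (0.879 to 2.72), has an interval that includes 1 and passed the UMI minimum only through the family.

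**Figure D5:**
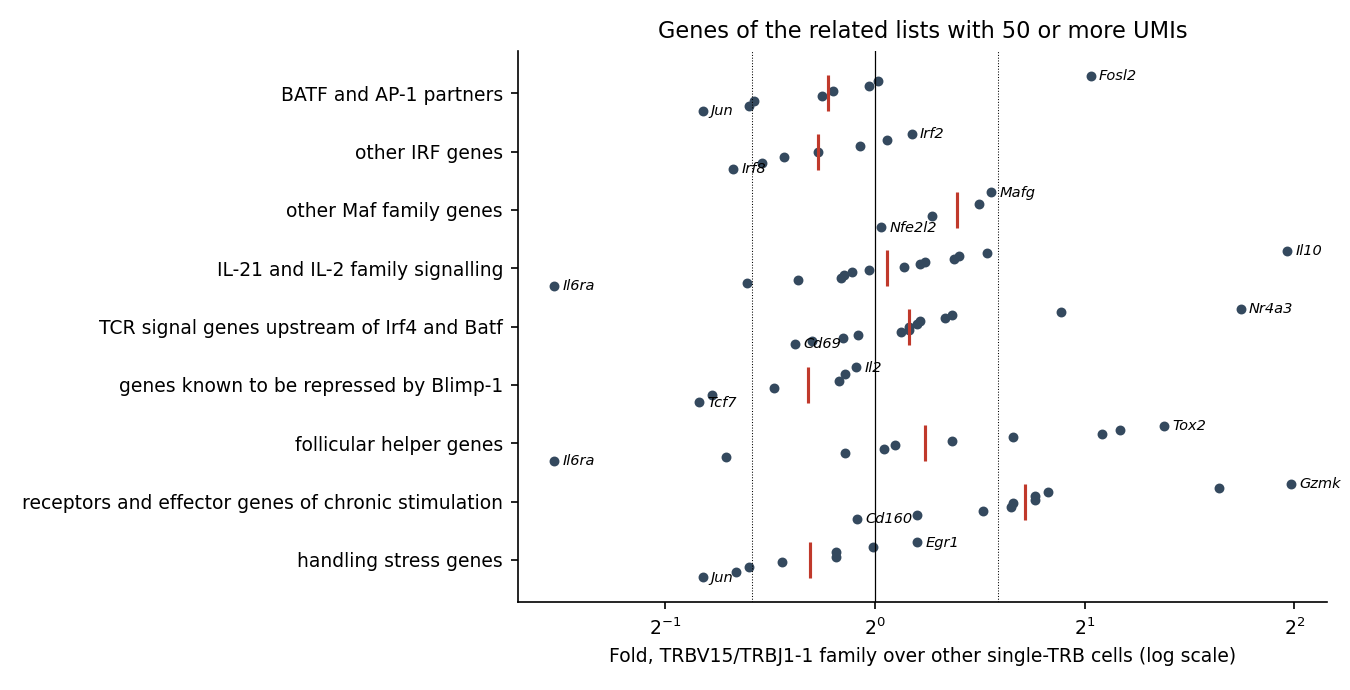
Fold of each measured gene of the related lists (points) in the TRBV15/TRBJ1-1 family over other single-TRB cells, on a log scale, with the list median as a red bar, the lowest and highest gene named and dotted lines at 1.5-fold higher and lower. Chronic stimulation genes have the highest median, 1.64, and genes known to be repressed by Blimp-1 the lowest, 0.802.

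Irf4 and Prdm1 are also plasma cell factors, and markers of that type moved with the family. The 7 plasma cell markers summed to 274 CPM in the family and 149 CPM in the reference, 1.83-fold (1.65 to 2.04), with Xbp1 at 164 against 90.0 CPM, Derl3 at 18.0 against 6.85 and Mzb1 at 31 against 5 UMIs. The defining markers Sdc1 and Tnfrsf17 were at 0 on both sides, and Jchain was at 3.61 and 2.19 CPM. At least 2 of these markers were found in 5.10% of family cells and 2.40% of the reference. The 9 B cell markers summed to 173 and 111 CPM, most of it from Cd22 at 112 against 77.1 CPM, with Ebf1 at 46.9 against 19.1 CPM, Cd79a at 4 and 3 UMIs, and Pax5 at 0 on both sides. At least 2 of them were found in 2.83% and 1.00% of cells. Without cells that hold at least 2 markers of another type, the folds were 4.73 for Irf4, 6.13 for Maf, 2.42 for Prdm1 and 10.3 for Il21. The sum of erythroid markers went the other way, at 12.9 CPM in the family and 472 CPM in the reference. It was uneven, from 0 to 1944 CPM between families. The share of cells with at least 2 of these markers did not, at 0.227% of the family and 0.167% of the reference. The part of erythroid transcripts in the folds was not tested.

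Neighbours of the 6 genes within 250 kb were measured in the same contrast. All positions are on GRCm38.p6 and come from RefSeq. Il21 lies on chromosome 3 (37222759 to 37232636), and Il2, 96.8 kb away, was at 17.0 against 18.1 CPM, 0.941-fold (0.621 to 1.39). Prdm1 lies on chromosome 10 (44437174 to 44528558), and Atg5, 72.9 kb away, was at 1.08-fold. Irf4 on chromosome 13 (30749233 to 30766981) had Exoc2 at 22.5 kb with 1.62-fold (1.30 to 2.01) and Dusp22 at 38.0 kb with 1.90-fold (0.919 to 3.78). Batf lies on chromosome 12 (85686720 to 85709087), 46.8 kb from Jdp2, another AP-1 gene, which was at 1.93-fold (1.59 to 2.33). The other measured neighbours of Batf were mixed. Fos, also an AP-1 gene and 209 kb away, was at 0.659-fold (0.603 to 0.719), Erg28 at 1.30-fold and Ttll5 at 0.337-fold. Maf lies on chromosome 8 (115703253 to 115706894). Batf3 lies on chromosome 1 (191098414 to 191108943), and in the TRBV12-1/TRBJ2-4 family Ppp2r5a, 243 kb away, was at 1.03-fold (0.657 to 1.54) and Angel2, 151 kb away, at 0.797-fold (0.380 to 1.48). Its nearest measured neighbours, Nsl1 and Tatdn3, had no UMI there, but only 6 and 30 in all other single-TRB cells.

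The promoter windows of Il21 and Prdm1 are shown because both genes were found beside Maf in single cells of the family. RefSeq promoters of 300 bases, 250 before to 50 after a start site, were matched for 5 of the 6 genes. They were searched on both strands for TGANTCA (an AP-1 element), AANNGAAA (an IRF core), TGCTGA (a Maf core) and GTGAAAG (a Blimp-1 core). Capitals mark the matches.
Il21, minus strand, chr3:37232587-37232886: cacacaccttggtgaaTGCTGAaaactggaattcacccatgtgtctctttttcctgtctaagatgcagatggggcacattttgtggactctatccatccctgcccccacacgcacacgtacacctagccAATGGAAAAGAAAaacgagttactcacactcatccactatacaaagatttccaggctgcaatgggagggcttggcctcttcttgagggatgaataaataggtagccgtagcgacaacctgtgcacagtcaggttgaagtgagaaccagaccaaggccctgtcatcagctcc
Prdm1, minus strand, chr10:44458699-44458998: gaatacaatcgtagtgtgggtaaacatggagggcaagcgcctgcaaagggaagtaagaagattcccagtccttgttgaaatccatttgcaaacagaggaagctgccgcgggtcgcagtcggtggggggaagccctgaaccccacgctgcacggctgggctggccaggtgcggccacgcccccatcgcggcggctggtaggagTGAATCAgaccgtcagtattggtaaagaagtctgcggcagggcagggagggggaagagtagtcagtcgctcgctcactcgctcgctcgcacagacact
Il21 held 1 Maf core, its first base at -234 with the start site counted as 0, and 2 overlapping IRF cores at -121 and -116. Prdm1 held 1 AP-1 element at -48, in a window that lies inside the span of the Prdm1 gene. Over 32851 promoters of the same length, 19.5% hold the Maf core, 23.9% the IRF core, 7.81% the AP-1 element and 4.24% the Blimp-1 core. Batf held 1 Blimp-1 core at -163, and Irf4 and Batf3 held none of the 4. A match is a stretch of letters and no binding was measured.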

How the data were processed

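The authors deposited a matrix of raw UMI counts per gene and cell, and a contig table with counts of UMIs and reads per TCR contig. Build GRCm38 and the tools featureCounts 2.0.1, STAR 2.6.1a and cutadapt 1.17 are listed, per the submitters' processing notes, without role or order; the receptor assembler was not given in the sources used here. Of 10387 barcodes, 10338 were kept, those that had 200 or more genes and less than 20% of UMIs from mitochondrial genes. Libraries were joined on the barcode. Doublets were treated as present: no caller was run, and cells with 2 TRB entered no family.

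CPM are summed UMIs per 1000000 UMIs. Sums have exact Poisson, ratios of levels exact conditional and shares Clopper-Pearson intervals. Pair ratios have the Poisson interval of the cells with both genes, divided by a product of shares taken as fixed. Such an interval can pass the highest possible ratio. For shares, each cell was thinned to 1000 UMIs (9456 cells; 882 were too shallow). Folds were computed for all genes with 50 or more UMIs over both sides. Scripts (python 3.11.15, numpy 2.4.6, scipy 1.17.1, pandas 2.3.3, matplotlib 3.10.9) were tested on simulated data. With 1 library no test was run. Named genes are the members, genes of the lists and, for each member, the 5 genes most like it over families and, for members in at least 100 thinned family cells, the 5 that lead in cells holding it; neighbours were named after their values were seen. The members and lists were chosen with earlier results of these data known. A few list genes are not reported here; 1 each was left out of the counts and medians of the interleukin signalling and Blimp-1 lists. Alternatives changed the cells kept, depth, denominator, weights, reference, thinning, pseudocount and minimum.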

Additional observations from a re-analysis of the deposited data

How the results depend on the processing

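Leaving ribosomal protein, mitochondrial and TCR segment genes, Gm42418 and Malat1 out of the UMI total raised all levels, to 816 CPM for Batf, 6.86 for Batf3, 11.7 for Irf4, 74.2 for Maf, 26.9 for Prdm1 and 8.23 for Il21. The mean of the CPM of each cell gave 573 for Batf. The other 29 of 36 alternative levels moved by less than counting error. Of 54 alternative folds, 53 kept their direction, and that of Batf was 0.999 with the other families weighted equally. The fold of Batf3 moved most, to 0.684 without TRBV12-1/TRBJ2-4 in the reference, 0.321 with cells of 2 TRB, 0.112 without cells that hold 2 markers of another type and 0.105 with equal weights. Folds in family cells with the main TRA were 5.35 for Irf4, 6.91 for Maf, 3.03 for Prdm1 and 14.4 for Il21; this alternative and the one without TRBV12-1/TRBJ2-4 were chosen after seeing the data. Of 57 alternative pair ratios, 56 stayed within the counting interval, and Irf4 with Maf outside the family was 0 when cells were thinned to 1500 UMIs. The orders of likeness were less stable: without TRBV15/TRBJ1-1, 0 of the 5 genes most like Il21 and 1 of the 5 most like Maf were kept. No paired analysis was possible because there is 1 library of each kind. Depth limits every pair among Irf4, Prdm1 and Il21, and the levels of Irf4 and Il21 in families other than the largest.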

Other observations

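Within the TRBV15/TRBJ1-1 family, other genes were found more often in cells with Maf or Batf, after thinning to 1000 UMIs. In the 101 cells with Maf and the 755 without it, Ppm1h, a phosphatase gene, was found in 13.9% and 4.64%, a ratio of 2.99. Prkcsh and Ssr3, genes of protein processing in the endoplasmic reticulum, were found in 17.8% against 6.23% and in 15.8% against 5.83%. Rgs2, a regulator of G protein signalling, was found in 11.9% against 4.24%, and Cybb, an oxidase subunit gene best known in phagocytes, in 21.8% against 7.95%. In the 362 cells with Batf and the 494 without it, the leading genes were the G protein gene Gna15 (8.01% against 3.44%), the NF-kappaB gene Nfkb2 (7.46% against 3.24%), Pitpnm1, Serpine2 (12.2% against 5.87%) and Eif3d. These 10 genes were taken from genes found in at least 5% of thinned family cells, which leaves out Irf4, Prdm1 and Il21, and each rests on 12 to 47 cells with both genes. They have the highest ratios of a long ranking, so nothing is read from the height of these ratios. Of 5983 genes found in at least 2% of these cells, 13.4% had a share at least 1.5 times as high in cells with Maf, and 9.08% in cells with Batf.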
